A study of Mus musculus with 3 samples.

Results

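DNA replication and nucleotide supply genes were examined in mouse kidney on 3 Affymetrix Mouse Gene 1.0 ST arrays. The members were a list of 39 genes named for their work at the replication fork or in making its nucleotides. The list was chosen with earlier results of these data known, so its counts describe these genes and test nothing. All 39 were measured by probe sets with a single gene symbol, among 19938 such genes. One array came from NTS/PGE2 mice, which received sheep nephrotoxic serum (NTS) once at 13.5 ug per g of body weight and then prostaglandin E2 (PGE2) daily at 5 ug per g from day 2. One came from NTS mice, which received the serum alone, and kidneys of the serum-treated mice were taken on day 7. One came from control mice that were not treated. All were female CBL/6 mice of 8 to 10 weeks. NTS is an antiserum that binds the glomerulus and starts an immune nephritis, and PGE2 is a lipid mediator that acts through cell surface receptors. The labels do not say whether an array held RNA of 1 mouse or of a pool, and they name no vehicle for the control or NTS mice.

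Cells copy their DNA once per division. Origins are licensed in G1 when the origin recognition complex, Cdc6 and Cdt1 load the MCM helicase ring. In S phase Cdc45 and GINS activate the ring, polymerases copy the strands with the help of the PCNA clamp, and histones are put back behind the fork. Many of these genes are transcribed under E2F factors as cells leave quiescence. Most tubule cells of the adult kidney are quiescent, and surviving tubule cells can re-enter the cycle after injury.

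Values are log2 expression values as the authors deposited them, and a difference of 1 is 2-fold. Each group was a single array, so differences carry no replicate check and no p-value, and precision is limited by the 3 arrays available. Size was judged by 2 rules, a log2 difference of at least 1 and one of at least 0.5. In genes measured by a pair of bright probe sets, a single probe set's difference had an SD of 0.22 for NTS/PGE2 minus NTS, 0.22 for NTS minus control and 0.13 for NTS/PGE2 minus control. This gauge leaves out the spread between animals. The 3 comparisons share arrays, so an odd value on one array enters 2 of them.

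Most of the listed replication genes read highest in NTS kidney. Of the 39, 32 were higher in NTS than in control kidney, 2 were lower and 5 had exactly the same value. Among all genes 32.8% were higher, 30.2% were lower and 37.0% were exactly equal. Most of these differences were below 2-fold. The median difference was 0.50 on the log2 scale and the median over all genes was 0. A difference of at least 0.5 was seen in 20 members, all of them higher, where 6.33% of all genes were higher by this much and 9.10% lower. Only Chaf1b, Rrm2 and Pole were at least 2-fold higher, and 0 were at least 2-fold lower, where 1.78% and 3.37% of all genes were. Beyond 2 probe-set SDs lay 22 members, against 18.2% of all genes in either direction.

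With PGE2 after the serum, most of these genes read lower than with serum alone. For NTS/PGE2 minus NTS, 34 members were lower, 1 was higher and 4 were exactly equal, where 29.3% of all genes were lower, 35.1% higher and 35.6% equal. The median was -0.53, beside 0 over all genes. By at least 0.5, 21 members were lower and 0 higher, where 7.28% and 7.80% of all genes were. At least 2-fold lower were Chaf1b, Rrm2, Pole, Mcm4 and Rrm1, and 2.10% of all genes passed this rule. At least 2-fold higher were 0 members and 2.56% of all genes. Beyond 2 probe-set SDs lay 24 members, against 17.2% of all genes. On the NTS array 32 members stood above both other arrays, as did 25.1% of all genes.

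Set against control, differences on the NTS/PGE2 array were small in these genes and in genes at large. Their small size is therefore no trait of this list. The median difference was 0, 9 members were higher, 18 lower and 12 exactly equal, where 30.7% of all genes were higher, 27.5% lower and 41.8% equal. No member differed by 0.5 in either direction, where 0.632% of all genes were higher and 2.01% lower by that much, and 0.0351% and 0.421% by 2-fold or more. Beyond 2 probe-set SDs lay 6 members, against 10.8% of all genes. The 20 members that were higher by at least 0.5 with serum alone were each closer to their control value after PGE2, 10 of them within 0.1. The NTS array both chose these 20 and gave the distance, so the count is a description. Among all members, 8 had exactly their control value on the NTS/PGE2 array and another value on the NTS array, as did 12.6% of all genes. The median polish of RMA returns equal values readily when few arrays are summarised, so equality here is no evidence of an unchanged gene.

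**Figure D1:**
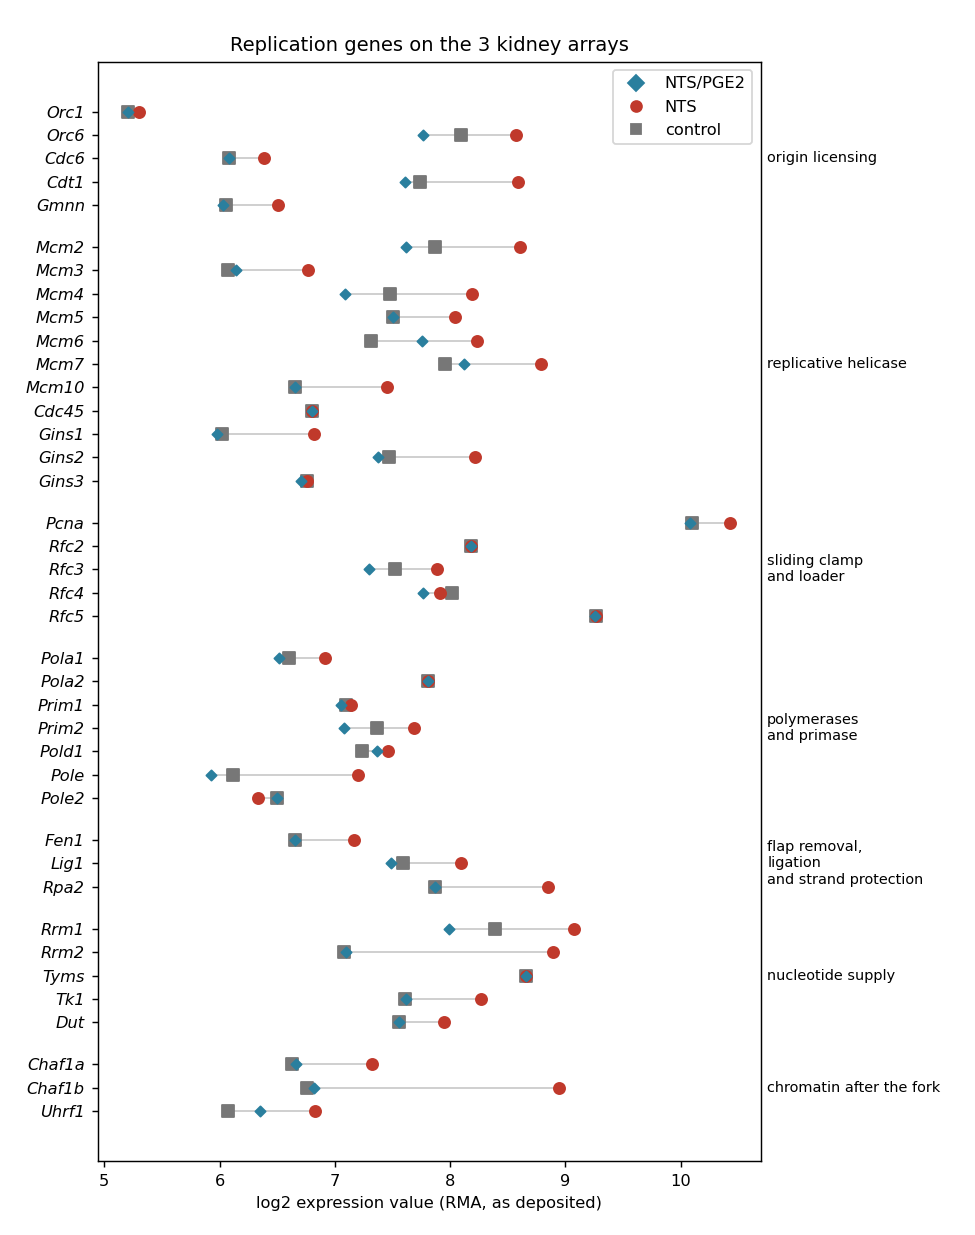
Log2 expression values (x axis) of the 39 replication genes (rows, grouped by role) on the NTS/PGE2 array (diamonds), the NTS array (circles) and the control array (squares), with a line spanning the 3 values. The NTS circle is the rightmost mark for 32 genes, and for Cdc45, Rfc2, Pola2 and Tyms the marks coincide.

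**Figure D2:**
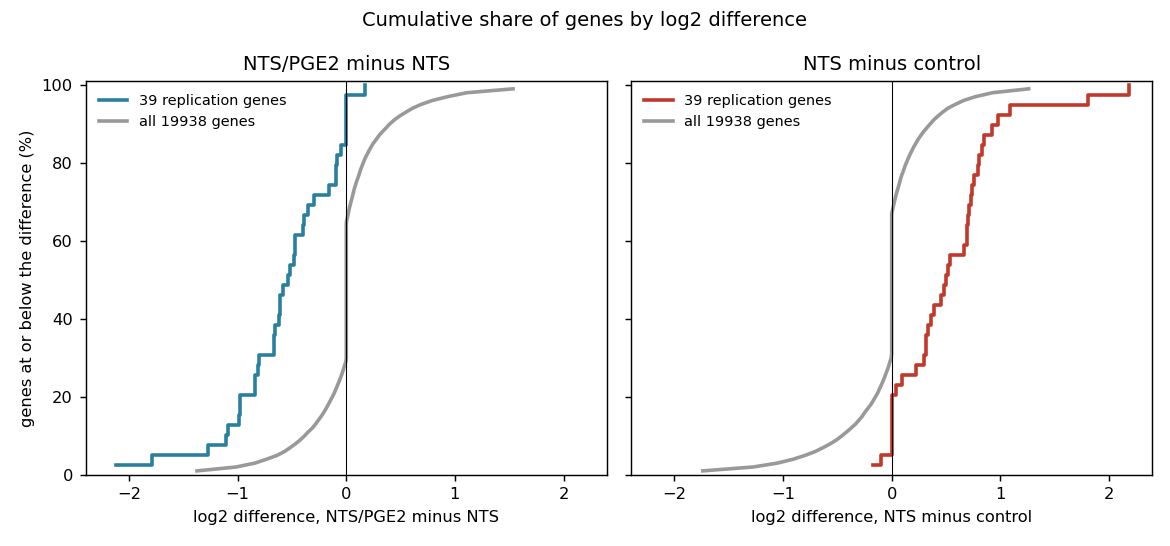
Cumulative share of genes (y axis, %) at or below a log2 difference (x axis) for NTS/PGE2 minus NTS (left) and NTS minus control (right), with the 39 replication genes as coloured steps and all 19938 genes in grey, drawn over percentiles 1 to 99. The replication genes lie left of all genes in the left panel, with a median of -0.53, and right of them in the right panel, with a median of 0.50.

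Promoter sequences are shown for 9 members that differ in their NTS minus control values and in the motifs they hold. Mcm6, Mcm5, Rpa2, Rrm2, Chaf1b and Mcm10 read higher on the NTS array, Tyms and Cdc45 had the same value on all 3 arrays, and Pole2 read lower on the NTS array. They were picked with their values known and stand for no trend. Each window runs from 250 bases before to 50 bases after a RefSeq transcript start in the GRCm38.p6 assembly and is written along the gene's strand. Capitals mark 3 motifs searched on both strands: an E2F motif, the box bound by NF-Y, and the cell cycle homology region (CHR). The E2F motif was searched as TTCCCGC, with the variants spelled TTCGCGC, or as TTGGCGC, or finally as TTGCCGC. The NF-Y box was searched as CCAAT and the CHR element was searched as TTTGAA, and matches may overlap.
Mcm6 (chr1:128359656-128359955, minus strand): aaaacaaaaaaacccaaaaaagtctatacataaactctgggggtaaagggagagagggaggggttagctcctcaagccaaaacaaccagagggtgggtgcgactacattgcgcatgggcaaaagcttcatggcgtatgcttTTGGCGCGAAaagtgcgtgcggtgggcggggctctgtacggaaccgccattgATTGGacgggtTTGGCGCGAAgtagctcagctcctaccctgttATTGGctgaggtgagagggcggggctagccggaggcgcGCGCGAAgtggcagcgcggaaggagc
Mcm5 (chr8:75109259-75109558, plus strand): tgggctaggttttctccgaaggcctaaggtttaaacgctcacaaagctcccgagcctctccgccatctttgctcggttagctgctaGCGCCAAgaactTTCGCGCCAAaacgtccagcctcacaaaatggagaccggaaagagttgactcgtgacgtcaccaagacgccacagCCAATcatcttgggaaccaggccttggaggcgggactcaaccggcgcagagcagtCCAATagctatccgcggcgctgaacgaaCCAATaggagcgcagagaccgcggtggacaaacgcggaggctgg
Rpa2 (chr4:132768110-132768409, plus strand): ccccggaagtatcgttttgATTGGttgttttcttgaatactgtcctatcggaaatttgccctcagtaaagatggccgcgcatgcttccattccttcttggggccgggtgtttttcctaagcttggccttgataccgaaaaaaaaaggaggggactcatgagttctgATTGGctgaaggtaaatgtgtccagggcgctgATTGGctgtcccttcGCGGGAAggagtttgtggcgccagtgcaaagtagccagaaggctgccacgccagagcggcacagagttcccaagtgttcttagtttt
Rrm2 (chr12:24708004-24708303, plus strand): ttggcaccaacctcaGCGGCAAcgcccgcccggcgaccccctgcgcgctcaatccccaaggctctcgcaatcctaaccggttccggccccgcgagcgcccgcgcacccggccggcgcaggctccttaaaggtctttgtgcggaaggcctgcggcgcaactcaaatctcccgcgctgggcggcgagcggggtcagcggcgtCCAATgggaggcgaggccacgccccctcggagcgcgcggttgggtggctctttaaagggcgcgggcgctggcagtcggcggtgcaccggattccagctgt
Chaf1b (chr16:93883651-93883950, plus strand): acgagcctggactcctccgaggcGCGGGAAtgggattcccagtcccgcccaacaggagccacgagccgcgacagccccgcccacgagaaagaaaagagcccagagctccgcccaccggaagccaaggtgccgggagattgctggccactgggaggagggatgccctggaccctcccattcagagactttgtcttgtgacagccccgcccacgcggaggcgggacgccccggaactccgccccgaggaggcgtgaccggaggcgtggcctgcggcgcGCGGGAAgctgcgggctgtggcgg
Mcm10 (chr2:5012742-5013041, minus strand): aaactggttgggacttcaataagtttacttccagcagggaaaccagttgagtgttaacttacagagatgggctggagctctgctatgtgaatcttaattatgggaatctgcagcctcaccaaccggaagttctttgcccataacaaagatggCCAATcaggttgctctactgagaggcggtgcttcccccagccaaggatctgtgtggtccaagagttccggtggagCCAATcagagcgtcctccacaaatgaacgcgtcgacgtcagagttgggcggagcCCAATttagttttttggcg
Tyms (chr5:30073576-30073875, minus strand): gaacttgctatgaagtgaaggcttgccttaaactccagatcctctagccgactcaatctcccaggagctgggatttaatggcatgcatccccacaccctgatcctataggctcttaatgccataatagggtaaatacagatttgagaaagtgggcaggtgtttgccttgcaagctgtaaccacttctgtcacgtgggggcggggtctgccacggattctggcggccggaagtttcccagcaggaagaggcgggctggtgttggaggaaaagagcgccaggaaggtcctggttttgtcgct
Cdc45 (chr16:18811923-18812222, minus strand): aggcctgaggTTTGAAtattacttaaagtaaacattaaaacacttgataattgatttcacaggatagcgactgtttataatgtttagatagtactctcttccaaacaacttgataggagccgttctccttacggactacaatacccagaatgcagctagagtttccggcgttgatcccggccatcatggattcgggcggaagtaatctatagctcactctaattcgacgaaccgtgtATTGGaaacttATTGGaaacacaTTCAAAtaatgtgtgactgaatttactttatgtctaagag
Pole2 (chr12:69228141-69228440, minus strand): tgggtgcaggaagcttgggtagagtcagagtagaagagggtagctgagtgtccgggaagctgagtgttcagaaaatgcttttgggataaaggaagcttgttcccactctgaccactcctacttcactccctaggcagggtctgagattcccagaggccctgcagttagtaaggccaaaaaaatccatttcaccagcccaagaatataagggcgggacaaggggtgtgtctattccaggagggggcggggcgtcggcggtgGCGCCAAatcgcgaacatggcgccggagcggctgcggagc

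The Mcm6 window holds 5 E2F matches, which overlap into 3 separate stretches, and 2 CCAAT matches. The Mcm5 window holds 3 E2F and 3 CCAAT matches. Rpa2 has 1 E2F and 3 CCAAT matches, Rrm2 has 1 of each, and Chaf1b has 2 E2F matches, one of them 26 bases downstream of the start. The Tyms window holds none of the 3 motifs in these letters, and the Cdc45 window holds 2 CCAAT and 2 CHR matches and 0 E2F matches. Some members that read higher on the NTS array held no E2F match. Mcm10, at 0.81 for NTS minus control, holds 0 E2F and 3 CCAAT matches, and Mcm2 at 0.73 and Tk1 at 0.67 also hold 0 E2F matches. Pole2 at -0.17, Rfc4 at -0.10 and Gins3 at 0 each hold 1 E2F match. The differences of Pole2 and Rfc4 are smaller than the probe-set SD of 0.22. The exact tie of Gins3 is no evidence of an unchanged gene. A match describes letters and not binding, and no match says only that these letters are not in this window.

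Promoter windows were found for 32 of the 39 members, 37 windows in all. Gmnn, Mcm4, Gins1, Gins2, Rfc2, Prim2 and Pole had no entry. The E2F motif was in 25 of the 37 windows, which is 67.6%, and in 9.57% of all 32851 windows of the same length. The members' windows were richer in G and C, with a median of 58.3% against 52.7% over all windows. Among windows of other protein-coding genes with a G and C content of 53 to 65%, 14.2% held it. This range runs from the lower to the upper quartile of the members' windows. The members' shares cover all 37 windows, so the comparison is not fully matched. The CCAAT box was in 56.8% of the members' windows and in 37.4% of all windows, and in 39.8% of the other genes' windows in that range. CHR was in 10.8% of the members' windows, in 17.9% of all windows and in 11.1% of the other genes' windows in that range. The 22 with an E2F match had a median NTS minus control difference of 0.52, with values from -0.17 to 2.18, and the 10 without had 0.36, with values from 0 to 0.81. For CCAAT the medians were 0.69 in the 19 members with a match and 0.30 in the 13 without. For CHR they were 0.26 in the 4 with a match and 0.49 in the 28 without. The ranges overlapped for each of the 3 motifs.

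**Figure D3:**
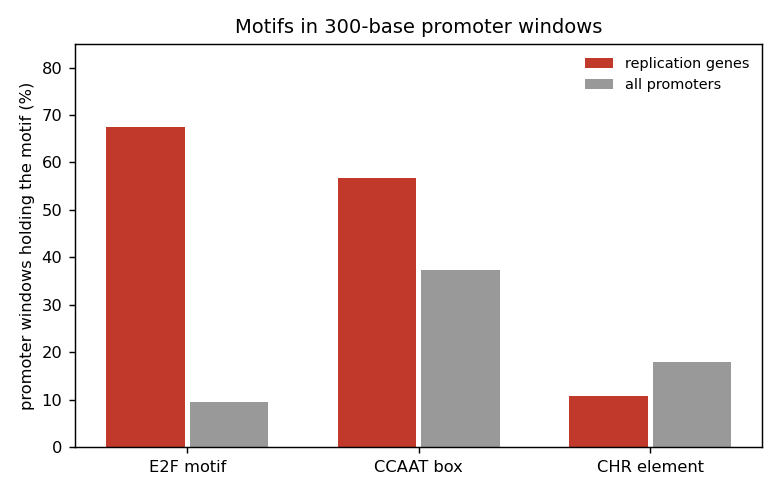
Share of 300-base promoter windows (y axis, %) that hold the E2F motif, the CCAAT box or the CHR element, for the 37 windows of the replication genes (red) and all 32851 windows (grey). The E2F motif was in 67.6% of the replication genes' windows and 9.57% of all windows, the widest gap of the 3.

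The origin licensing genes were higher on the NTS array in all 5 cases, with a median difference of 0.45, and a median of -0.47 for NTS/PGE2 minus NTS. Cdt1, which brings the MCM ring to origins, read 7.61 in NTS/PGE2, 8.59 in NTS and 7.74 in control kidney. Orc6, the smallest subunit of the origin recognition complex, read 7.76 in NTS/PGE2, 8.57 in NTS and 8.09 in control kidney. For both, the NTS/PGE2 value was the lowest of the 3, and Orc6 lay below control by a log2 difference of -0.33. Gmnn (geminin), the inhibitor that binds Cdt1, was likewise higher in NTS kidney. It read 6.03 in NTS/PGE2, 6.50 in NTS and 6.05 in control kidney. Cdc6, the loading factor that works with Cdt1, read 6.09 in NTS/PGE2, 6.38 in NTS and 6.09 in control kidney. Orc1, the ATPase subunit that recruits Cdc6, read 5.20 in NTS/PGE2, 5.30 in NTS and 5.20 in control kidney, below the 25th percentile of each array, so its difference of 0.10 lies in a range that may be background.

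All 6 subunits of the MCM ring were higher in NTS than in control kidney, by 0.53 to 0.92, with a median of 0.72. Mcm6 read 7.76 in NTS/PGE2, 8.23 in NTS and 7.31 in control kidney. Mcm7 read 8.12 in NTS/PGE2, 8.79 in NTS and 7.96 in control kidney, and Mcm2 read 7.62 in NTS/PGE2, 8.60 in NTS and 7.87 in control kidney. Mcm4 read 7.09 in NTS/PGE2, 8.19 in NTS and 7.48 in control kidney, Mcm3 read 6.14 in NTS/PGE2, 6.77 in NTS and 6.07 in control kidney, and Mcm5 read 7.51 in NTS/PGE2, 8.04 in NTS and 7.51 in control kidney. On the NTS/PGE2 array their differences from control lay between -0.39 and 0.44. Mcm6 kept 48.3% of its NTS difference there, while Mcm4 and Mcm2 read below control by differences of -0.39 and -0.25 and Mcm5 had its control value.

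The factors that turn the loaded ring into a moving helicase included genes with a difference and genes with equal values. Mcm10, needed to start unwinding, read 6.65 in NTS/PGE2, 7.46 in NTS and 6.65 in control kidney. Gins1 read 5.98 in NTS/PGE2, 6.82 in NTS and 6.02 in control kidney and Gins2 read 7.37 in NTS/PGE2, 8.21 in NTS and 7.47 in control kidney, so these subunits of the GINS complex differed by 0.80 and 0.74 for NTS minus control. Gins3, in the same complex, read 6.71 on the NTS/PGE2 array and 6.76 on both others. Cdc45, which joins GINS and MCM in the active helicase, read 6.80 on all 3 arrays, and Gins4, the last GINS subunit and no member, read 8.88 on all 3. Gins1 and Gins2 thus read higher in NTS kidney, and Gins3 and Gins4 had equal values in NTS and control. Such ties are no evidence of an unchanged gene, so a split within the complex is not shown.

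The clamp and its loader had the lowest median for NTS minus control of the 7 roles, 0.003. Pcna, the ring that holds polymerases on DNA, read 10.08 in NTS/PGE2, 10.43 in NTS and 10.10 in control kidney. Its 2 probe sets gave NTS minus control differences of 0.33 and 0.34. Both read 10.08 in NTS/PGE2 and 10.10 in control kidney, with the same value on each of these arrays. They are therefore not taken as independent measurements. The small subunits of the clamp loader RFC, which opens the ring, had a median NTS minus control difference of 0.001 over 4 genes. Rfc3 read 7.30 in NTS/PGE2, 7.88 in NTS and 7.52 in control kidney. Rfc4 was lower on both serum-treated arrays, with 7.76 in NTS/PGE2, 7.92 in NTS and 8.02 in control kidney. Rfc5 read 9.26 on all 3 to 2 decimals and Rfc2 read 8.19 on all 3. The large loader subunit Rfc1, no member, read 8.28 in NTS/PGE2, 8.40 in NTS and 8.42 in control kidney.

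Among the polymerases one catalytic subunit stood apart. Pole, the catalytic subunit of polymerase epsilon on the leading strand, read 5.93 in NTS/PGE2, 7.20 in NTS and 6.12 in control kidney. That is 2.12-fold higher in NTS than in control kidney, although both lower values lie in the lower range of their arrays. Its partner Pole2 read lower in NTS kidney, with 6.50 in NTS/PGE2, 6.33 in NTS and 6.50 in control kidney. Pola1, the catalytic subunit of polymerase alpha, read 6.52 in NTS/PGE2, 6.92 in NTS and 6.60 in control kidney, and its accessory subunit Pola2 read 7.81 on all 3 arrays. The primase subunits had unequal differences too, with Prim2 at 7.08 in NTS/PGE2, 7.69 in NTS and 7.36 in control kidney and the catalytic Prim1 at 7.05 in NTS/PGE2, 7.14 in NTS and 7.10 in control kidney. Pold1, the catalytic subunit of polymerase delta, read 7.37 in NTS/PGE2, 7.46 in NTS and 7.24 in control kidney. The median of the 7 genes was -0.09 for NTS/PGE2 minus NTS and 0.22 for NTS minus control.

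The 3 genes that protect and join the copied strands were all at least 0.5 higher in NTS than in control kidney. Rpa2, a subunit of the protein that coats single-stranded DNA, read 7.86 in NTS/PGE2, 8.85 in NTS and 7.86 in control kidney. Its NTS minus control difference of 0.98 is just under 2-fold. Its partners, which are no members, had NTS minus control differences of 0.34 for Rpa1 and -0.19 for Rpa3. Fen1, which cuts the flaps of Okazaki fragments, read 6.65 in NTS/PGE2, 7.16 in NTS and 6.65 in control kidney. Lig1, the ligase that seals them, read 7.49 in NTS/PGE2, 8.10 in NTS and 7.59 in control kidney.

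Nucleotide supply held one of the largest differences. Rrm2, the small subunit of ribonucleotide reductase whose level sets the enzyme's activity in S phase, read 7.10 in NTS/PGE2, 8.89 in NTS and 7.08 in control kidney. It was 3.50-fold higher in NTS than in control kidney and 3.46-fold higher than on the NTS/PGE2 array. Rrm1, the large subunit, read 7.99 in NTS/PGE2, 9.08 in NTS and 8.39 in control kidney, so its NTS/PGE2 value lay below control by a difference of -0.39. Rrm2b, the p53-induced small subunit and no member, was lowest in NTS kidney, with 7.89 in NTS/PGE2, 7.66 in NTS and 7.93 in control kidney.

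The thymidine genes included differences and exact ties, and a tie is no evidence of an unchanged gene. Tyms, which makes dTMP from dUMP, read 8.66 on all 3 arrays. Tk1, the cytosolic kinase that salvages thymidine, read 7.61 in NTS/PGE2, 8.27 in NTS and 7.61 in control kidney. Its 2 probe sets were both higher in NTS kidney and gave NTS minus control differences of 0.93 and 0.40. The mitochondrial kinase Tk2, no member, read 8.22 on all 3 arrays. Dut, which removes dUTP and yields the substrate of Tyms, read 7.56 in NTS/PGE2, 7.95 in NTS and 7.56 in control kidney.

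Chromatin assembly held the largest difference of all members. Chaf1b, the middle subunit of the histone chaperone CAF-1 that PCNA brings to the fork, read 6.82 in NTS/PGE2, 8.94 in NTS and 6.76 in control kidney. It was 4.54-fold higher in NTS than in control kidney, from 1 probe set. Its partner Chaf1a differed by 0.70, with 6.66 in NTS/PGE2, 7.33 in NTS and 6.63 in control kidney. Uhrf1, which reads hemimethylated DNA and guides the maintenance methyltransferase Dnmt1, read 6.35 in NTS/PGE2, 6.83 in NTS and 6.07 in control kidney, and kept 37.0% of its difference with PGE2. Dnmt1 itself, no member, read 8.31 in NTS/PGE2, 8.68 in NTS and 8.33 in control kidney.

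**Figure D4:**
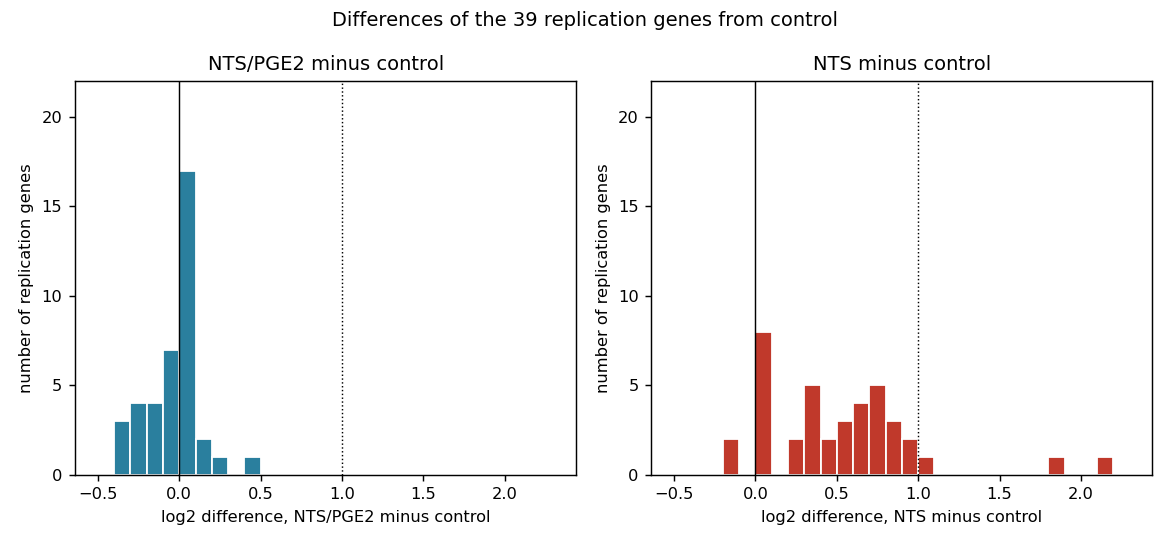
Number of replication genes (y axis) by log2 difference from control (x axis, bars 0.1 wide, exact zeros counted in the bar that starts at 0) for the NTS/PGE2 array (left) and the NTS array (right), with the 2-fold line dotted. On the NTS/PGE2 array all 39 lie within -0.39 and 0.44, and on the NTS array they reach 2.18.

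Other genes of the pathway were followed in 5 lists, with NTS minus control differences given unless stated. Of 27 other replisome genes, 15 were higher and 8 lower in NTS than in control kidney (2 and 0 by 2-fold or more), and the median was 0.13. The shares of all genes were 32.8% higher and 30.2% lower, and 1.78% and 3.37% by 2-fold or more. Dbf4, the activator of the Cdc7 kinase that fires origins, read 6.15 in NTS/PGE2, 7.63 in NTS and 6.13 in control kidney, and Cdc7, dim on every array, differed by 0 for NTS minus control. Top2a, the topoisomerase that untangles finished copies, differed by 1.20, with values below the 25th percentile on the NTS/PGE2 and control arrays. Orc2 differed by 0.78, Ticrr (treslin), which helps to load Cdc45, by 0.64, and the fork protein Wdhd1 by 0.59. Top1, the topoisomerase that relaxes DNA ahead of forks, was lower at -0.51. The origin subunits Orc3, Orc4 and Orc5 differed by -0.42, 0 and 0.

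Of 21 fork protection and checkpoint genes, 15 were higher and 3 lower in NTS than in control kidney (3 and 0 by 2-fold or more), and the median was 0.14. The shares of all genes were 32.8% higher and 30.2% lower, and 1.78% and 3.37% by 2-fold or more. Esco2, which makes the cohesion between sister copies during S phase, differed by 1.52, Brca1 by 1.27, the helicase gene Blm by 1.12 and Rad18 by 0.78. For NTS/PGE2 minus NTS these 4 genes differed by -1.43, -1.13, -1.36 and -0.996. Atad5, which unloads PCNA, differed by 0.52 and Fancd2 by 0.36 for NTS minus control. Esco2, Brca1 and Atad5 read below the 25th percentile on the NTS/PGE2 and control arrays. The size of their differences thus rests on values that may be background.

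More of the other nucleotide supply genes were lower than higher with serum alone. Of 29, 9 were higher and 17 lower in NTS than in control kidney (0 and 2 by 2-fold or more), and the median was -0.11. The 31.0% that were higher lay near the share of all genes, 32.8%. Of all genes 30.2% were lower, and 1.78% were higher and 3.37% lower by 2-fold or more. Shmt2 and Mthfd1, enzymes of one-carbon folate metabolism, differed by -1.18 and -1.08, and Shmt1 by -0.76. The mitochondrial kinase gene Dguok differed by -0.98, and Paics, of purine synthesis, by -0.69. Hprt, which salvages purines, was higher by 0.75. Of 10 proximal tubule markers, 9 were lower in NTS than in control kidney by 2-fold or more, and their part in this list was not tested.

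The 10 other chromatin genes had a median NTS minus control difference of 0.15, with 7 higher and 2 lower. The shares of all genes were 32.8% higher and 30.2% lower. Hells differed by 0.52, the histone chaperone gene Asf1b by 0.47, Rbbp7 by 0.35, Dnmt1 by 0.35 and Hat1 by 0.23, and the heterochromatin protein gene Cbx5 by -0.70. The control value of Hells lay below the 25th percentile. Of 33 genes that control the passage from G1 to S, 18 were higher and 5 lower (3 and 1 by 2-fold or more), and the median was 0.04. By 2-fold or more, 1.78% of all genes were higher and 3.37% lower. The S phase cyclin Ccna2 read 6.75 in NTS/PGE2, 9.08 in NTS and 6.52 in control kidney. E2f8, a repressor among the E2F factors, differed by 1.17, Myc by 1.00 and Cdk6 by 0.99, while the G1 cyclins Ccnd2 and Ccnd1 were lower at -1.25 and -0.71. For NTS/PGE2 minus NTS the medians of the 5 lists were -0.20 for other replisome genes, -0.29 for fork protection, 0 for other nucleotide supply, -0.20 for other chromatin genes and -0.07 for G1 to S control. Among the activating E2F genes, E2f1 differed by 0.44, E2f2 by 0 and E2f3 by 0.15.

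**Figure D5:**
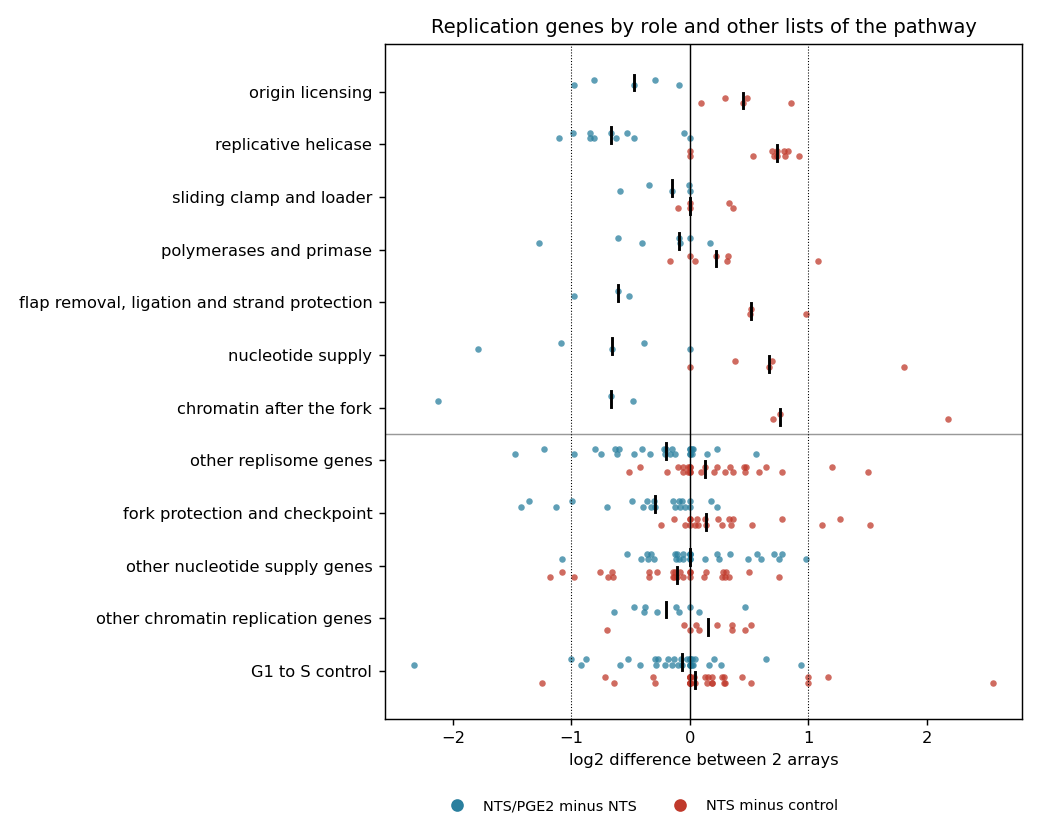
Log2 differences (x axis) of single genes (points) for NTS/PGE2 minus NTS (blue, upper) and NTS minus control (red, lower) in the 7 roles of the 39 replication genes (above the grey line) and in 5 lists of other pathway genes (below it), with the median of each list as a black bar and dotted lines at 2-fold. The helicase genes have medians of -0.67 and 0.73, and other nucleotide supply genes lie on both sides of 0.

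Array-wide values that touch these results concern the makeup of the tissue. RNA of whole kidney was used, so more dividing cells and more transcript per cell cannot be told apart. No marker of the proximal tubule, loop and distal tubule, collecting duct, podocyte or endothelium lists lay below the 25th percentile on any array. The tubule and endothelium markers read lower in NTS kidney, where the replication genes read higher. For NTS minus control, 10 of 10 proximal tubule markers were lower with a median of -1.48, 7 of 8 loop and distal markers with -1.19, 8 of 8 collecting duct markers with -1.62 and 7 of 7 endothelium markers with -1.76. For NTS/PGE2 minus NTS every marker of these 4 lists was higher, with medians of 1.59, 1.37, 1.39 and 1.49 in the same order. Of all genes 30.2% were lower for NTS minus control and 35.1% higher for NTS/PGE2 minus NTS. The podocyte markers had medians of -0.01 for NTS/PGE2 minus NTS and 0.03 for NTS minus control. The part of these cell types in the replication genes was not tested. Summed over 8 tubular injury markers, the linear signal was 2680 in NTS/PGE2, 26306 in NTS and 4765 in control kidney. Lcn2, a secreted injury protein gene, makes up most of the sum on each array. All 8 were higher in NTS than in control kidney, with a median of 2.18, and for NTS/PGE2 minus control the median was -0.12, with Havcr1 at 0.73, Tnfrsf12a at 0.56 and Lcn2 at -1.30. Cells that could bring their own division to the tissue were followed by their markers. Summed signals of 8 T and NK cell markers were 693 in NTS/PGE2, 612 in NTS and 693 in control kidney, with Cd3d and Klrb1c below the 25th percentile on all 3. Those of 6 B and plasma cell markers were 558 in NTS/PGE2, 489 in NTS and 532 in control kidney, with Cd79a and Ms4a1 below it. Those of 8 neutrophil markers were 503 in NTS/PGE2, 495 in NTS and 491 in control kidney, with S100a8, Cxcr2 and Ngp below it. Erythroid precursor markers, 4 of 8 listed, summed to 1082 in NTS/PGE2, 755 in NTS and 1861 in control kidney, and 11 macrophage markers to 3175 in NTS/PGE2, 4732 in NTS and 4171 in control kidney. The lymphocyte and erythroid sums were lower in NTS than in control kidney, the neutrophil sums were close, and the macrophage sum was higher. Of the 8 T and NK cell markers 4 were lower and 4 exactly equal, with Nkg7 the lowest at -0.67. Of the 6 B and plasma cell markers 3 were lower and 3 exactly equal. Across all genes 32.8% were higher, 30.2% lower and 37.0% exactly equal. These small lymphocyte counts are therefore not read as a result about those cells. No T and NK cell or neutrophil marker reached the array median in NTS or control kidney, so their sums lie in a dim range. The macrophage markers were divided: 3 of 11 were higher in NTS than in control kidney, Cd68 by 2.23, Cd14 by 2.15 and Itgam by 1.10, and 7 were lower, among them Csf1r at -1.09 and Adgre1 at -0.87. Of the 4 erythroid markers Alas2 and Tfrc were lower, at -2.75 and -1.04, and Klf1 and Epor stood at 0.05 and 0.04. The part of these cells in the replication genes was not tested. The control array stood apart in fat: 9 adipocyte markers summed to 5024 in NTS/PGE2, 2264 in NTS and 18135 in control kidney. The part of fat in the differences from control was not tested.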

How the data were processed

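Total RNA of whole kidney, 250 ng per array, was labelled with biotin by the Ambion WT Expression and Affymetrix kits and hybridised to 3 arrays, 1 per group, per the labels' protocols. The authors deposited log2 values, 1 per probe set and array. The authors' tools were Affymetrix Expression Console and RMA, which corrects background, equalises the arrays' distributions and summarises probes by median polish, per the submitters' processing notes. Tool versions and build: not given in the sources used here. Of 35556 probe sets, 25.4% carried a single value across the 3 arrays. The 25th percentile was 5.79 for NTS/PGE2, 5.78 for NTS and 5.77 for control, and no probe could be set against its own background.

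Of the probe sets, 21789 had 1 gene symbol, 1621 several and 12146 none. Gene identifiers of 21698 were matched to the RefSeq table of GRCm38.p6. Probe sets of a gene were averaged, giving 19938 genes; Pcna and Tk1 had 2 probe sets and the other 37 members 1. Differences were taken between arrays with Python 3.11.15 and pandas 2.3.3, over all members and all genes with no filter on low values. Where the higher value of a pair had to reach its array's median, 29, 29 and 22 members passed for NTS minus control, NTS/PGE2 minus NTS and NTS/PGE2 minus control; no count rests on that filter. The calculation was tested on simulated data.

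All 39 members were named in the text; of each other pathway list the 6 with the largest NTS minus control difference were named, with paralogues of members, and other genes named (Cdc7, E2f1, E2f2, E2f3) were chosen after their values were seen. The pathway lists measured 27 of 27, 21 of 22, 29 of 31, 10 of 11 and 33 of 34 genes. The members, lists and size rules were chosen with earlier results of these data known. Promoter motifs were searched in RefSeq windows. Alternatives were the brightest probe set, centred arrays, a mean filter, probe sets of several symbols and a smaller size rule.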

Additional observations from a re-analysis of the deposited data

How the results depend on the processing

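With 1 array per group no array could be left out and no p-value exists, so these settings test only the arithmetic. No paired analysis was possible because each group has 1 array. The members' medians moved by less than the probe-set SD under every setting tried: 0.50 to 0.55 for NTS minus control, -0.61 to -0.53 for NTS/PGE2 minus NTS, and -0.003 to 0.02 for NTS/PGE2 minus control. Counts moved more. For members higher by 2-fold or more in NTS than in control kidney, the count of 3 became 1 among the 21 members whose mean over the arrays reached the median of all genes, and 20 with a size rule of 0.5. For members lower by 2-fold or more in NTS/PGE2 than in NTS kidney, the count of 5 became 8 with arrays centred on the median of all genes, 3 among those 21 members, and 21 with a size rule of 0.5. The filter counts fewer members and the size rule is looser. Centring shifted NTS/PGE2 minus NTS by -0.02, which carried Mcm2, Rpa2 and Cdt1 past the 2-fold line. The brightest probe set moved Tk1 alone, to 0.93 for NTS minus control and -0.93 for NTS/PGE2 minus NTS. No probe set with several symbols listed a member, so that setting changed nothing. No difference at or beyond 2-fold changed sign. Without scanner values, the dim members cannot be set against background.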

Other observations

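Starts of other genes lie within 1 kb of several members on the opposite strand in the RefSeq promoter table. Of 6 measured pairs, both genes were higher for NTS minus control in the Orc1 pair alone. Among all genes 32.8% were higher and 37.0% exactly equal. In the Lig1, Fen1 and Cdc45 pairs one gene had exactly equal NTS and control values, which is no evidence of an unchanged gene. The differences of Ap4m1 and Orc1 were smaller than the probe-set SD of 0.22. Mcm7, with an NTS minus control difference of 0.83, begins 138 bases from Ap4m1, an adaptor complex gene, which differed by -0.09. Lig1, at 0.50, begins 105 bases from Zswim9, which read 7.53 on the NTS/PGE2 array and 7.51 on both others. Tk1, at 0.67, and Afmid, a kynurenine pathway gene, have starts 95 bases apart, and Afmid differed by -0.44. Fen1, at 0.51, begins 191 bases from Tmem258, which read 7.47 on all 3 arrays. Cdc45 read the same on all 3 arrays and begins 322 bases from Ufd1, a partner of the p97 unfoldase, which differed by 0.45. Orc1, at 0.10, begins 118 bases from the splicing factor gene Prpf38a, which differed by 0.23. These 6 pairs were found after the values were seen and carry no test.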
